A study of Mus musculus with 92 samples.

Results

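8 of 29956 named genes are followed here, from among the many that differed between macrophages grown from ER-Hoxb8 progenitors and bone marrow-derived (BMD) macrophages in culture. Cadm1, Smpdl3a and Fabp7 were higher in BMD macrophages, and Mst1, Bmpr1a, G0s2, F7 and Rhoj were higher in ER-Hoxb8 macrophages. They were picked from the measured values, for being among the largest day 7 differences in vitro, so that contrast is given as a description with no test. The other cells and lines of the series supply libraries that took no part in the choice. The ER-Hoxb8 progenitors and day 4 cells may come from the same lines as the day 7 macrophages, which the labels do not say.

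The series holds 92 mouse libraries of bulk RNA, made to compare ER-Hoxb8 cells with bone marrow cells inside and outside the brain, and to ask what loss of Adar1 does to them. ER-Hoxb8 cells are myeloid progenitors held immature by Hoxb8 fused to the estrogen receptor while estrogen is present. They were kept in estradiol and GM-CSF and turned into macrophages with M-CSF over 7 days. The paper calls the replicates of the BM, BMD, ER-Hoxb8, MLC and microglia groups biological, and the ER-Hoxb8 lines compared with BM cells independent. For the drug experiment described below, its methods give independently differentiated replicates. The labels do not say which line, culture or animal gave each library, so each p measures the spread between these libraries.

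All cells came from FVB mice. BM progenitors, BM monocytes and BMD macrophages carried the genotype WT, with 3 libraries each. ER-Hoxb8 progenitors, cells on day 4 and macrophages on day 7 were Cas9 het, also with 3 libraries each, so Cas9 and cell source cannot be told apart outside the brain. The BM progenitors and monocytes are labelled as isolated and not as grown, while ER-Hoxb8 cells were grown in culture, so culture cannot be told apart from cell source there either. Microglia-like cells (MLCs) were BM cells or ER-Hoxb8 cells injected into brains of CSF1R KO mice, which lack microglia of their own, and sorted back out, with 6 libraries of each. The ER-Hoxb8 MLCs were labelled WT. Their libraries were named GFPHox in replicates 1 to 3 and WTHox, with the ending Lo, in replicates 4 to 6, called WTHox here. Microglia came from uninjected WT mice in 9 libraries. Cas9 het ER-Hoxb8 progenitors were transduced with a nontargeting control guide (NTC) or with a guide to Adar. NTC and Adar KO with sgRNA 1 each gave 3 progenitor and 3 macrophage libraries, and sgRNA 2 gave 3 progenitor and 5 macrophage libraries. A further 33 libraries came from NTC and sgRNA 1 macrophages grown for 7 days with baricitinib, a JAK inhibitor, at 0, 0.0006, 0.016, 0.4 or 10 µM. These doses are those of the titles, and the protocol text gives 0.16 in place of 0.016 µM.

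Values are log2 CPM, reads scaled to a common library total, as normalized by the authors, and a gene without reads takes a lowest value that depends on which libraries were normalized together. Levels were compared only among libraries that share that value. The 12 libraries of BM progenitors, BM monocytes, ER-Hoxb8 progenitors and day 4 cells shared -4.34, at 34.3 to 48.9 M reads. The 27 libraries of day 7 macrophages, MLCs and microglia shared -3.62, at 8.6 to 43.3 M reads, the fewest in a GFPHox library. NTC and sgRNA 1 cells without baricitinib shared -3.43 in 11 libraries of 17.2 to 41.9 M reads. NTC macrophage replicate 2 had its own lowest value, -3.09, and stayed out of the comparisons, except in an alternative that kept it. The sgRNA 2 libraries shared -3.56 at 18.5 to 27.1 M reads, and the baricitinib libraries -2.78 at 6.1 to 34.2 M reads.

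As background, several of the 8 genes belong to well-known systems. Mst1 encodes macrophage-stimulating protein, a secreted ligand cut to its active form by serine proteases, and Bmpr1a encodes a type I receptor for bone morphogenetic proteins (BMPs). F7 encodes coagulation factor VII, which starts clotting with tissue factor and is best known from the liver. G0s2 inhibits adipose triglyceride lipase, Fabp7 is a fatty acid binding protein of radial glia, Smpdl3a is a secreted phosphodiesterase whose gene responds to liver X receptors (LXR), Cadm1 is a cell adhesion molecule, and Rhoj is a small GTPase.

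Several libraries stood apart or went against their labels. ER-Hoxb8 progenitor replicates 1, 2 and 3 held 16100, 59600 and 647 CPM of 7 macrophage markers, and 72.1, 28.7 and 2850 CPM of 5 progenitor markers. BM progenitors held 785 to 2210 CPM of the macrophage markers, most of it Lyz2, and 6770 to 15700 CPM of the progenitor markers, most of it Mpo. Replicates 1 and 2 of the ER-Hoxb8 progenitors therefore did not show the progenitor markers at the level their label implies. ER-Hoxb8 MLC replicate 6 held 28700 CPM of the macrophage markers, against 7220 CPM at the group's median, and microglia replicate 9 held 19800 CPM. Microglia replicate 8 held 126, 834 and 629 CPM of neuron, astrocyte and oligodendrocyte markers, against medians of 1.74, 294 and 34.8 CPM, and had 12867 genes above the lowest value. Replicates 8 and 9 of the microglia also carried another library name than the other 7. Where leaving these libraries out changes a member's call, both values are given. Names also differed among BMD macrophages, with wBM_1 for replicate 3 beside Mac1 and Mac3. NTC progenitors were named NTC2Prog, and the NTC macrophages compared were named NTC-1 and NTC-3. Of 25 list genes called between ER-Hoxb8 and BM progenitors, 19 stayed called without ER-Hoxb8 replicates 1 and 2, a choice made after seeing the data, and those that did not are named where they are given.

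Hoxb8 was at the lowest value in every BM, BMD, MLC and microglia library. It read -2.08, -1.83 and 0.33 in ER-Hoxb8 progenitors, -0.34, -2.24 and 1.19 on day 4, and -0.27, -1.47 and -3.62 in ER-Hoxb8 macrophages.

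Adar, the target of the guides, was read in every KO line, although the guide makes small insertions and deletions, so the level of its mRNA does not check the label. NTC progenitors read 4.20, 3.42 and 4.28 and sgRNA 1 progenitors 4.36, 4.23 and 4.24, a difference of 0.31 (SE 0.19, adjusted p = 0.927). NTC macrophages read 5.73 and 5.67, with 5.86 in replicate 2, and sgRNA 1 macrophages 6.96, 7.15 and 7.01. sgRNA 1 macrophages were higher by 1.34 (SE 0.21, adjusted p = 0.000976) in 3 of 3 libraries. sgRNA 2 progenitors read 4.35, 4.56 and 4.36 and macrophages 7.02, 7.00, 7.02, 7.03 and 6.99, a rise of 2.59 (SE 0.06, adjusted p = 3.86e-11). At 0 µM of the baricitinib experiment NTC read 5.12, 4.94 and 4.69 and Adar KO 7.42, 6.52 and 6.37, a difference of 1.85 (SE 0.48, adjusted p = 0.00513). Adar KO libraries read 5.90, 5.94 and 6.21 at 0.0006 µM, 6.25, 5.90 and 6.37 at 0.016 µM, 4.12, 7.38 and 4.21 at 0.4 µM, and 1.55, 2.15, 2.91 and 2.03 at 10 µM. NTC read 3.70, 3.64 and 3.22 at 10 µM, and the effect of 10 µM differed between the lines by -3.21 (SE 0.66, adjusted p = 0.000373). Without drug no sgRNA 1 group was below NTC in mean.

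On day 7, Cadm1 had the largest difference of group means toward BMD macrophages among the 10859 genes ranked, -9.43, with means of -2.38 in ER-Hoxb8 and 7.06 in BMD macrophages. Smpdl3a ranked 4 at -8.24 and Fabp7 ranked 5 at -8.02. Apoe at -9.32 and Ch25h at -8.72 lay between them and were not members, and B3galnt1 at -7.90, Mcoln3 at -7.70 and Pde1c at -7.62 came next. In the other direction Mst1 differed by 5.88, Bmpr1a by 5.84, G0s2 by 5.79 and F7 by 5.56, ranks 1 to 4. Rhoj ranked 7 at 5.40, behind the nonmembers Gm1972 at 5.48 and Cdkn2a at 5.42, and ahead of Cyb561a3 at 5.30, Apoc1 at 5.26 and Rasd2 at 5.24. The groups did not overlap for 8 of 8 members and for 2265 genes in all, or 20.9% of those ranked, a contrast that chose the members. The median absolute difference of all ranked genes was 0.4, and 659 genes differed by at least 2.

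Away from the choosing contrast, the day 7 directions of the members tested held in progenitors and on day 4. They held only in part in the brain. In progenitors and on day 4 Fabp7 was too low to be tested, and G0s2 overlapped between the progenitor groups. A gene counts as called at an adjusted p below 0.05 in limma with a log2 fold change of at least 2 in either direction. Against BM progenitors, 6 of 7 members tested were called in ER-Hoxb8 progenitors, with 15.4% of all 12134 genes called. Against BM monocytes, 6 of 7 were called in day 4 cells, with 11.8% of genes called. Every call had the day 7 direction, and G0s2 was the member tested but not called in both. Bmpr1a passed the filter there only through ER-Hoxb8 libraries and Cadm1 only through BM libraries, so their calls are given as descriptions. That leaves Smpdl3a, Mst1, F7 and Rhoj as the members called in both comparisons. With no filter, 6 of 8 members were called in each comparison, with 10.5% and 7.28% of genes called. Between ER-Hoxb8 and BMD MLCs, 2 of 7 were called, Cadm1 and Mst1, with 6.53% of 12647 genes called. Against microglia, 2 of 7 were called in ER-Hoxb8 MLCs, the same pair of genes, with 16.3% of genes called, and 2 of 7 in BMD MLCs, Bmpr1a and G0s2, with 10.7% of genes called. Mst1 was above log2 0 in 4 brain libraries and F7 in 3, so both passed the filter of 6 libraries only with the day 7 macrophages that chose them. Their brain tests are left aside and their values described, which leaves Cadm1 as the call in ER-Hoxb8 MLCs. On day 4 the Cadm1 call was lost on the log2(CPM + 1) scale. Without ER-Hoxb8 progenitor replicates 1 and 2, an alternative chosen after seeing the data, the same 6 members were called against BM progenitors with 14.6% of genes called, at log2 fold changes of -7.42 for Cadm1, -6.27 for Smpdl3a, 4.76 for Mst1, 5.80 for Bmpr1a, 7.97 for F7 and 7.60 for Rhoj. Without ER-Hoxb8 MLC replicate 6, 5 members were called between the MLCs, Mst1 among them, with 6.44% of genes called. G0s2, at -3.27, was also among them and ran against its day 7 direction. These counts describe the members and are not a test of them as a set.

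The other comparisons follow differentiation, Adar1 loss and baricitinib. Between day 4 cells and ER-Hoxb8 progenitors limma called 0 of 7 members, and 0.0% of all genes, with 1135 genes at an unadjusted p below 0.05. That 0 rests on a library, since without ER-Hoxb8 progenitor replicate 2 limma called 737 genes and 1 member, Rhoj. From NTC progenitors to NTC macrophages 3 of 6 members were called, with 23.5% of 11119 genes called, Fabp7 among them on values too low to support a test, and from sgRNA 2 progenitors to macrophages 2 of 5, with 19.4% of 10776 genes. Between sgRNA 1 and NTC macrophages 0 of 6 were called, where limma called 4.05% of genes and 3965 had an unadjusted p below 0.05. Between their progenitors 0 of 6 were called, where limma called 0.252% and 732 genes had an unadjusted p below 0.05. At 0 µM of the baricitinib experiment 0 of 5 were called between Adar KO and NTC, with 3.88% called and 4119 genes at an unadjusted p below 0.05. In NTC macrophages at 10 µM against 0 µM 1 of 5 was called, F7, with 0.82% of 11339 genes called.

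**Figure D1:**
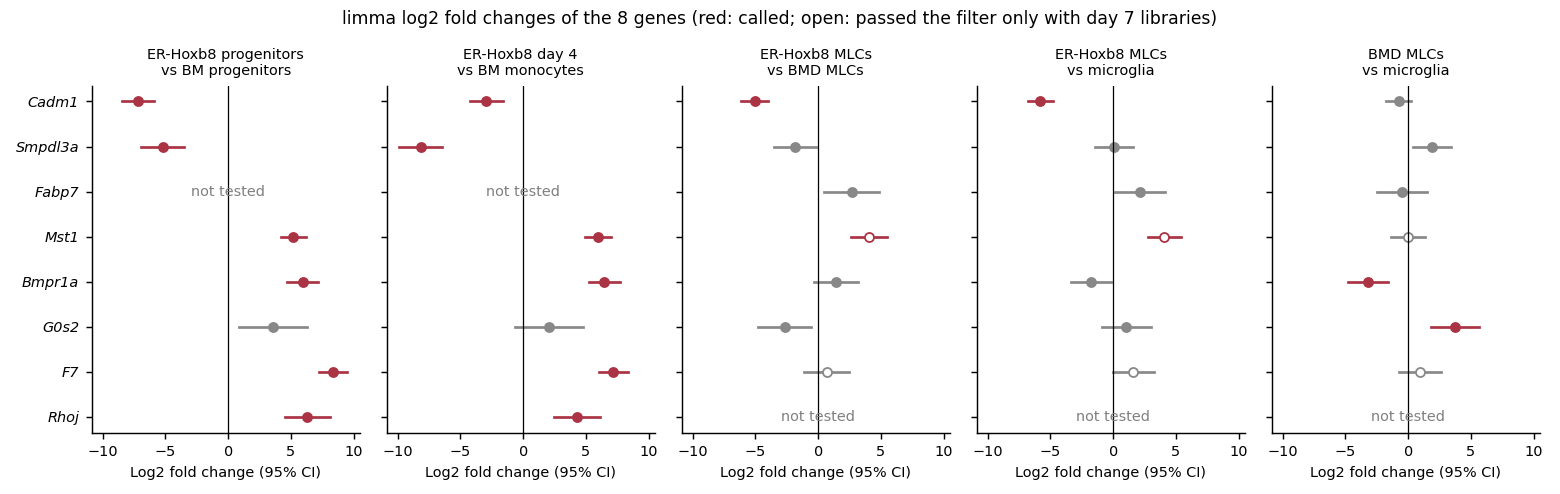
Log2 fold changes from limma of the 8 genes with 95% confidence intervals in 5 comparisons, with called genes in red. In progenitors and on day 4 the called genes lie on the day 7 side, and in the MLC comparison Cadm1 is called. Open points are genes that passed the filter only with the day 7 libraries, Mst1 and F7, whose brain tests are left aside. In progenitors and on day 4 the red points of Bmpr1a and Cadm1 are descriptions. Bmpr1a passed the filter there only through ER-Hoxb8 libraries and Cadm1 only through BM libraries.

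Mst1, F7 and Rhoj were called higher in ER-Hoxb8 cells both in progenitors and on day 4. Bmpr1a also read higher in both, with calls that are descriptions only, which makes 4 of the 5 genes higher in ER-Hoxb8 macrophages. Their promoters are shown for that reason, as the 250 bases before the start of each gene, 5′ to 3′ on the gene's strand, from RefSeq on GRCm38.p6. They lie at chr8:13025784-13026033 on the plus strand (F7), chr9:108080186-108080435 on the plus strand (Mst1), chr14:34502547-34502796 on the minus strand (Bmpr1a) and chr12:75308063-75308312 on the plus strand (Rhoj). 6 of the 8 members had an entry among the 32851 promoters, and Cadm1 and Smpdl3a had none. Capitals mark matches to any of 5 motifs searched on both strands, namely GAGGAA of PU.1, TGATTNAT of HOX with PBX, TTGCNNAA of C/EBP, GGGCGG of GC boxes and TGANTCA of AP-1.
F7: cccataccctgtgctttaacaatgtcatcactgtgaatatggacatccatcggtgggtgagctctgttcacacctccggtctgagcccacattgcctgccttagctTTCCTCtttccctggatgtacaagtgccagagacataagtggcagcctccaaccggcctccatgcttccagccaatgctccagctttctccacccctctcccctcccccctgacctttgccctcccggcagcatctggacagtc
Mst1: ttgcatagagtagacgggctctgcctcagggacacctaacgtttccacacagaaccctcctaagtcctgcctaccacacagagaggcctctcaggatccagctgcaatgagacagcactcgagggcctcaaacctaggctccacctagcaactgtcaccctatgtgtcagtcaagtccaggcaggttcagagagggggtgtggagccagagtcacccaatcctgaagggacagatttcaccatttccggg
Bmpr1a: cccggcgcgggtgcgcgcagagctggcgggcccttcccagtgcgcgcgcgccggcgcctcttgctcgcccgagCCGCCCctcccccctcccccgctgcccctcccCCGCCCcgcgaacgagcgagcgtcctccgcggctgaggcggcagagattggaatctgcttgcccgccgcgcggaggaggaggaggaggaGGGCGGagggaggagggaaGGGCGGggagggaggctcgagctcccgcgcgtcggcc
Rhoj: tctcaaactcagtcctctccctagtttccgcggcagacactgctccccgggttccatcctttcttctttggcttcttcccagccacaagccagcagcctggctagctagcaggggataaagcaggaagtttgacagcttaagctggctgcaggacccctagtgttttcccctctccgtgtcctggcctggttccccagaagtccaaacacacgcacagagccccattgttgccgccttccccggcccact

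GAGGAA matched once in F7, on the minus strand, and in none of the other 5 members, with 23.3% of all promoters holding it. GGGCGG matched 4 times in Bmpr1a and once in G0s2, and 32.7% of all promoters hold it. TGATTNAT, TTGCNNAA and TGANTCA had no match in the 6 promoters and occur in 2.82%, 9.56% and 6.75% of all. The 4 sequences differed in composition, with 36 CG pairs in Bmpr1a, 7 in Rhoj and 4 each in F7 and Mst1, against a median of 6 over all promoters. A match describes the letters in this window and was not tested as a binding site.

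Cadm1 mediates adhesion between cells, and BM cells carried its transcript at every stage while cultured ER-Hoxb8 cells held almost none. BM progenitors read 4.00, 4.70 and 4.54, and ER-Hoxb8 progenitors read -2.43, -2.88 and -3.01. BM monocytes read 0.21, -0.14 and -0.52, and day 4 cells read -2.75, -2.15 and -4.34. The order was BM progenitors, BM monocytes, ER-Hoxb8 progenitors, day 4 cells, and only the last neighbours overlapped. Cadm1 was lower in ER-Hoxb8 progenitors than in BM progenitors, with a log2 fold change of -7.18 (SE 0.59, adjusted p = 5.52e-06) and all 3 libraries of each group apart. On day 4 it was -2.93 (SE 0.59, adjusted p = 0.00495) against monocytes, again with no overlap, and on the log2(CPM + 1) scale it was -0.77 and not called. Only 1 monocyte library was above log2 0, so that call leans on low values. Every ER-Hoxb8 library of this set lay below log2 0, so Cadm1 passed the filter through BM libraries alone. Both Cadm1 calls are therefore given as descriptions.

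In the brain set, Cadm1 read 6.36, 7.15 and 7.65 in BMD macrophages and -2.37, -2.29 and -2.47 in ER-Hoxb8 macrophages. BMD MLCs ran from 3.35 through a median of 5.93 to 6.90, and ER-Hoxb8 MLCs from -1.05 through 0.61 to 1.80. Microglia ran from 5.17 through 6.31 to 7.34. All 6 ER-Hoxb8 MLCs lay above the 3 ER-Hoxb8 macrophages and below all BMD MLCs and microglia, while BMD macrophages, microglia and BMD MLCs overlapped in turn. Cadm1 was lower in ER-Hoxb8 than in BMD MLCs by a log2 fold change of -5.04 (SE 0.52, adjusted p = 1.66e-07), and between -5.47 and -4.74 when any library was left out. Against microglia it was -5.81 (SE 0.48, adjusted p = 2.34e-10) in ER-Hoxb8 MLCs and -0.77 (SE 0.48, adjusted p = 0.297) in BMD MLCs, and -5.76 and -0.72 without microglia replicates 8 and 9. The conventional dendritic cell 1 list, whose cells express Cadm1, summed to 19.5 to 36.5 CPM in BMD MLCs and 14.4 to 67.1 CPM in ER-Hoxb8 MLCs, which overlapped. Among progenitors it was lower in ER-Hoxb8 cells, at 30.5 to 33 CPM in BM and 2.34 to 12.6 CPM in ER-Hoxb8 cells, with Flt3 the most abundant of its 6 markers and Clec9a at the lowest value in the latter. Marrow cells were depleted of lineage-marked cells to give the BM progenitors, which may take some of these cells out. Its part in the Cadm1 values was not tested in either set. In bulk RNA, fewer cells of a type and less RNA per cell cannot be told apart.

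In the transduced lines Cadm1 stayed low and was not tested. NTC progenitors read -2.01, -0.57 and -2.07, and sgRNA 1 progenitors -0.63, -1.06 and -1.88. NTC macrophages read -2.01 and -0.78, with -3.09, its lowest value, in replicate 2, and sgRNA 1 macrophages -1.16, -1.33 and -1.08. All 4 groups overlapped. The sgRNA 2 libraries lay between -3.08 and -1.43, with progenitors and macrophages overlapping.

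Of 11 CADM and nectin adhesion genes in the table, the nectins under their older symbols, 5 were tested in the 12 libraries of progenitors, monocytes and day 4 cells. In ER-Hoxb8 progenitors 2 were called higher, Pvr at 3.27 and Pvrl2 at 3.50, and 2 lower, Crtam at -5.04 and Pvrl1 at -5.61. The list's median was -0.34 beside -0.08 for all genes tested. On day 4 Pvrl2 was higher at 4.60 and Pvrl1 lower at -7.75, with a list median of -1.73 beside -0.01. Between the MLCs limma called 0 of 7, with a median of 0.20 beside -0.22 for all genes, of which 3647 had an unadjusted p below 0.05. The genes most like Cadm1 over the 27 libraries of the brain set were Btbd3 (Pearson r = 0.942), Fkbp9 (0.921) and Cnrip1 (0.915). These libraries include the day 7 macrophages that chose the members, so such likenesses, here and below, are descriptions.

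Smpdl3a encodes a secreted phosphodiesterase related to acid sphingomyelinase, and it was high in every BM population. BM progenitors read 5.13, 5.55 and 5.42, and monocytes 7.56, 8.82 and 8.22. ER-Hoxb8 progenitors read -0.79, 2.12 and -0.90, and day 4 cells -1.27, 1.1 and 0.23. Monocytes stood above BM progenitors and both stood above the ER-Hoxb8 groups, which overlapped each other. The log2 fold change was -5.22 (SE 0.79, adjusted p = 0.000519) in ER-Hoxb8 against BM progenitors and -8.17 (SE 0.79, adjusted p = 3.39e-05) in day 4 cells against monocytes, with no overlap in either. The highest ER-Hoxb8 progenitor value came from replicate 2, and without replicates 1 and 2 the fold change against BM progenitors was -6.27 (adjusted p = 0.000222), with the remaining library assumed to vary like the other groups. Over all 13 alternatives that adjusted p ran from 3.08e-05 to 0.00358.

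Mast cell and basophil markers, 5 of 5 above 1 CPM in both BM groups with Prss34 the most abundant, summed to 3020 to 4660 CPM in BM progenitors and 3760 to 5040 CPM in monocytes, which overlapped, and to no more than 13.5 CPM in either ER-Hoxb8 group. BMD macrophages, also high in Smpdl3a, held at most 9.12 CPM of them. BM progenitors were prepared by lineage depletion and monocytes by monocyte enrichment, both on magnetic columns. The part of mast cell and basophil RNA in the Smpdl3a values was not tested.

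In the brain the Smpdl3a difference depended on the library. BMD macrophages read 7.75, 8.74 and 8.33, and ER-Hoxb8 macrophages -0.07, -0.22 and 0.38. BMD MLCs ran from 5.32 through 6.53 to 6.72 and microglia from 1.93 through 4.64 to 5.44. ER-Hoxb8 MLCs read 2.71, 1.17 and 3.54 in the GFPHox libraries and 4.43, 5.42 and 9.31 in the WTHox libraries, so all 6 lay above the cultured ER-Hoxb8 macrophages and replicate 6 above every other library of the set. ER-Hoxb8 MLCs overlapped both BMD MLCs and microglia. Against BMD MLCs the log2 fold change of -1.86 (SE 0.81, adjusted p = 0.127) was not called, with 4 of 6 ER-Hoxb8 libraries below every BMD MLC. It was called at -2.84 (adjusted p = 0.00169) without replicate 6 and at -3.82 (adjusted p = 7.64e-05) with GFPHox libraries only, and it read 0.09 (adjusted p = 0.954) with WTHox libraries only. Against microglia it was 0.05 (SE 0.74, adjusted p = 0.97) with all libraries, -1.91 (adjusted p = 0.0109) with GFPHox and 2.01 (adjusted p = 0.03) with WTHox libraries. Without microglia replicates 8 and 9 it was -0.32 (adjusted p = 0.772). Over all alternatives the adjusted p ran from 7.64e-05 to 0.954 against BMD MLCs and from 0.0109 to 1 against microglia, and the difference between the library names was not tested.

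Smpdl3a was close to absent in the transduced lines. NTC and sgRNA 1 libraries lay between -2.85 and -1.28 in progenitors and macrophages, sgRNA 2 libraries between -3.56 and -1.50, and the baricitinib libraries at or below -1.04. NTC macrophage replicate 2 read -1.07. It was too low to be tested in these sets.

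Smpdl3a is an LXR target, and among 8 LXR targets and receptors ER-Hoxb8 progenitors had 1 called higher, Nr1h3 at 3.82, and none lower, with a median of 0.57 beside -0.08 for all genes. On day 4 Nr1h3 was higher at 2.97 and Apoe lower at -2.26, with a median of 1.17 beside -0.01. Apoe was also lower in ER-Hoxb8 than BMD MLCs, at -2.95, the only call of 8, with a median of -0.91 beside -0.22. Of 9 genes of sphingomyelin breakdown 7 were tested in the 12 libraries, and Asah1 at 2.96 and Sgms2 at 2.29 were higher in ER-Hoxb8 progenitors, with a median of 1.07. limma called 0 of 7 on day 4 against monocytes, where 3597 of all genes had an unadjusted p below 0.05, and 0 of 9 between the MLCs, with medians of -0.19 and -0.76. Cers4 (r = 0.856), Hmces (0.854) and Cox6b2 (0.841) were most like Smpdl3a over the 27 libraries.

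Fabp7, a fatty acid binding protein, lies next to Smpdl3a on chromosome 10, 6.1 kb apart in the RefSeq table. BM progenitors read -3.42, -2.29 and -2.65 and ER-Hoxb8 progenitors -3.19, -1.85 and -4.34. Monocytes read -1.03, 0.16 and 0.58 and day 4 cells -4.34, -1.63 and -1.65. Only the monocytes stood apart, above the other 3 groups, and Fabp7 was too low to be tested there. BMD macrophages read 6.94, 5.22 and 3.14 and ER-Hoxb8 macrophages -2.04, -3.62 and -3.08. BMD MLCs ran from -3.62 through -0.48 to 1.29, ER-Hoxb8 MLCs from 1.12 through 1.98 to 3.49, and microglia from -3.62 through -0.79 to 5.71.

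Between the MLCs Fabp7 had the opposite order to day 7, with 5 of 6 ER-Hoxb8 MLCs above every BMD MLC and all 6 above the ER-Hoxb8 macrophages. The log2 fold change between ER-Hoxb8 and BMD MLCs was 2.65 (SE 1.06, adjusted p = 0.0932) and was not called. With the replicate number as a block it was 2.65 with an adjusted p of 0.044. The highest microglia value, 5.71, was replicate 8. Against microglia the fold change was 2.13 (SE 0.97, adjusted p = 0.093), and without replicate 8 it was called at 2.85 (adjusted p = 0.00383). Over all alternatives the adjusted p ran from 0.044 to 0.225 against BMD MLCs and from 0.00383 to 0.241 against microglia. Astrocyte and radial glia markers summed to 36.7 to 134 CPM in ER-Hoxb8 MLCs and 23.8 to 42.2 CPM in BMD MLCs, with Aldoc the most abundant of 6 and Aqp4 at the lowest value in BMD MLCs. The brain cells were sorted after staining for CD45 and CD11B. Microglia replicate 8 held more of the astrocyte markers than its group's median, as given above. The part of astrocyte and radial glia RNA in the Fabp7 values was not tested.

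In the NTC and sgRNA 1 lines Fabp7 was low, and every macrophage library compared lay below the progenitors of its line. NTC progenitors read 0.11, -0.20 and -0.72 and sgRNA 1 progenitors 1.10, 0.31 and 0.25, without overlap. NTC macrophages read -3.43 and -2.57, with -1.67 in replicate 2, and sgRNA 1 macrophages -2.75, -1.18 and -2.26. The NTC macrophages compared held at most 3 reads each. Fabp7 passed the filter through the progenitors alone, and its call in NTC was lost on the log2(CPM + 1) scale, at -0.75, so the tests with macrophages are left aside. sgRNA 1 against NTC gave 0.82 (SE 0.48, adjusted p = 0.91) in progenitors. All 8 sgRNA 2 libraries were at the lowest value.

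Of 8 other fatty acid binding proteins, 3 were tested in progenitors and on day 4, with Fabp4 at 4.65 and Fabp5 at 4.76 called higher in progenitors, and Fabp3 at 5.74, Fabp4 at 3.92 and Fabp5 at 3.12 on day 4. The medians were 4.65 and 3.92. limma called 0 of 3 between the MLCs, with a median of -0.20. At 10 µM baricitinib Fabp4 at -3.05 and Fabp5 at -2.12 were lower than at 0 µM in NTC macrophages, with a median of -2.12 beside -0.01 for all genes. Tmsb10 (r = 0.657), Slc15a3 (0.656) and Atp5h (0.651) were most like Fabp7.

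G0s2 encodes an inhibitor of triglyceride lipolysis, and its levels varied widely within groups. BM progenitors read -1.90, 2.57 and 1.84 and ER-Hoxb8 progenitors 5.87, 2.41 and 5.00. Monocytes read -1.01, 2.59 and 0.85 and day 4 cells 2.95, 2.86 and 2.83. The progenitor groups overlapped, through ER-Hoxb8 replicate 2, while all 3 day 4 libraries stood above the monocytes. The fold changes were 3.59 (SE 1.23, adjusted p = 0.0514) and 2.07 (SE 1.23, adjusted p = 0.295), neither called. Without ER-Hoxb8 progenitor replicate 2 the first was called at 4.60 (adjusted p = 0.0175), and without BM progenitor replicate 2 at 4.45 (adjusted p = 0.039), and without ER-Hoxb8 replicates 1 and 2 it was 4.16 (adjusted p = 0.0873). Over its 13 alternatives the adjusted p ran from 0.0175 to 0.191. Neutrophil markers, 5 of 5 above 1 CPM in BM progenitors with Ngp the most abundant, summed to 272, 9000 and 3960 CPM in BM progenitors and 422, 8230 and 3770 CPM in monocytes, in the same order of replicates as G0s2. BM progenitors were depleted of lineage-marked cells and monocytes enriched on magnetic columns. In ER-Hoxb8 progenitors the neutrophil markers summed to 11.1 to 36.7 CPM and on day 4 to 39.4 to 53.6 CPM. Their part in the G0s2 values was not tested.

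In the brain G0s2 read lower in the GFPHox than in the WTHox libraries, and that difference was not tested. BMD macrophages read -2.17, -3.18 and -1.97 and ER-Hoxb8 macrophages 2.81, 2.83 and 4.40. BMD MLCs ran from 1.68 through 4.28 to 5.03 and microglia from -2.82 through 0.09 to 1.44. ER-Hoxb8 MLCs read -0.50, -1.95 and -2.83 in the GFPHox libraries and 2.94, 4.45 and 4.01 in the WTHox libraries. BMD MLCs were above all microglia, and the GFPHox libraries lay below every BMD MLC while the WTHox libraries lay among them. G0s2 was higher in BMD MLCs than in microglia at 3.71 (SE 0.94, adjusted p = 0.00489), and at 3.07 without microglia replicates 8 and 9. Between ER-Hoxb8 and BMD MLCs the fold change was -2.67 (SE 1.03, adjusted p = 0.0811), called at -5.45 (adjusted p = 0.000125) with GFPHox libraries only and 0.11 (adjusted p = 0.952) with WTHox libraries only. It was called at -3.36 (adjusted p = 0.027) without replicate 5, at -3.27 (adjusted p = 0.0336) without replicate 6 and, with the replicate block, at an adjusted p of 0.0433. Against microglia it was 1.04 (SE 0.94, adjusted p = 0.425), 0.40 without replicates 8 and 9, with -1.74 for GFPHox and 3.82 (adjusted p = 0.000658) for WTHox libraries. Over all alternatives the adjusted p ran from 0.000125 to 0.952 between the MLCs and from 0.000658 to 0.82 against microglia.

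Neutrophil markers and G0s2 were both low in the GFPHox libraries, and within the WTHox libraries their orders differed. The markers summed to 6870, 4090, 28100, 31700, 30500 and 29600 CPM in BMD MLC replicates 1 to 6, where G0s2 read 2.52, 1.68, 5.03, 4.27, 4.29 and 4.35. In ER-Hoxb8 MLCs they summed to 735, 229 and 314 CPM in GFPHox and to 17600, 40400 and 3260 CPM in WTHox libraries, where G0s2 read 2.94, 4.45 and 4.01, and in microglia to 403 to 5740 CPM. All 5 markers exceeded 1 CPM in each of the 3 groups, and Ngp was the most abundant. The genes most like G0s2 over the 27 libraries were Mmp9 (r = 0.953), Ifitm6 (0.896) and Nfe2 (0.895). The part of neutrophil RNA in the G0s2 values was not tested.

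In the lines G0s2 was high in progenitors and lower in macrophages. NTC progenitors read 6.82, 6.90 and 6.75 and NTC macrophages 2.60 and 2.79, with 2.71 in replicate 2. sgRNA 1 progenitors read 6.77, 7.02 and 6.68 and sgRNA 1 macrophages 4.05, 3.95 and 3.82. Progenitors of both lines overlapped, both stood above all macrophages, and the sgRNA 1 macrophages stood above the NTC macrophages. G0s2 fell by 4.13 on the log2 scale from NTC progenitors to macrophages (SE 0.13, adjusted p = 3.81e-10). sgRNA 2 progenitors read 6.28, 6.22 and 6.24 and macrophages 3.01, 2.88, 3.11, 3.08 and 2.86, a fall of -3.26 (SE 0.09, adjusted p = 1.41e-10) with no overlap. sgRNA 1 macrophages exceeded NTC macrophages by 1.24 (SE 0.13, adjusted p = 5.43e-05), under the fold limit, in 3 of 3 libraries. The sgRNA 1 effect in macrophages differed from that in progenitors by 1.24 (SE 0.18, adjusted p = 0.000794). Neutrophil markers summed to 69.0, 80.6 and 82.6 CPM in sgRNA 1 macrophages and 10.7 and 15.4 CPM in NTC macrophages, with S100a8 the most abundant and S100a9 at the lowest value in the former, and their part was not tested. In the baricitinib experiment at 0 µM, sgRNA 1 macrophages read 3.27, 3.20 and 3.37 and NTC macrophages 3.05, 2.95 and 2.88, apart by 0.32 (SE 0.23, adjusted p = 0.342).

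Hsd11b1, 8.1 kb from G0s2 on chromosome 1, was called in some comparisons with G0s2 and in others without it. It fell by 6.51 on the log2 scale from NTC progenitors to macrophages (adjusted p = 3.82e-09), changed at -3.15 in sgRNA 2 (adjusted p = 6.57e-08), and was higher by 3.67 in BMD MLCs than microglia (adjusted p = 0.00238), as G0s2 was called in each. Where G0s2 was not called, Hsd11b1 was higher by 3.10 in sgRNA 1 than NTC macrophages (adjusted p = 1.86e-05) and by 2.83 in ER-Hoxb8 MLCs than microglia (adjusted p = 0.0112). Between Adar KO and NTC macrophages at 0 µM of the baricitinib experiment Hsd11b1 differed by 0.35 (adjusted p = 0.66) and was not called. It was lower in day 4 cells than in monocytes at -2.71 (adjusted p = 0.0117), and in NTC macrophages at 10 against 0 µM baricitinib at -2.11 (adjusted p = 0.00596). Among 13 genes of triglyceride storage and lipolysis 9 were tested. Plin2 at 3.73, Pnpla2 at 2.44, Dgat1 at 2.23 and Plin3 at 2.18 were called higher in ER-Hoxb8 progenitors and none lower, with a median of 2.18 beside -0.08 for all genes, of which 15.4% were called. Only Pnpla2 stayed called without replicates 1 and 2, which were rich in macrophage markers, with Plin2 at 1.52, Plin3 at 1.59 and Dgat1 at 1.89. limma called 0 of 9 on day 4 and 0 of 9 between the MLCs, with medians of 0.54 and -0.71. From NTC progenitors to macrophages Plin2 rose at 3.44 and Dgat2 fell at -2.57, with a median of -0.26 beside -0.08.

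**Figure D2:**
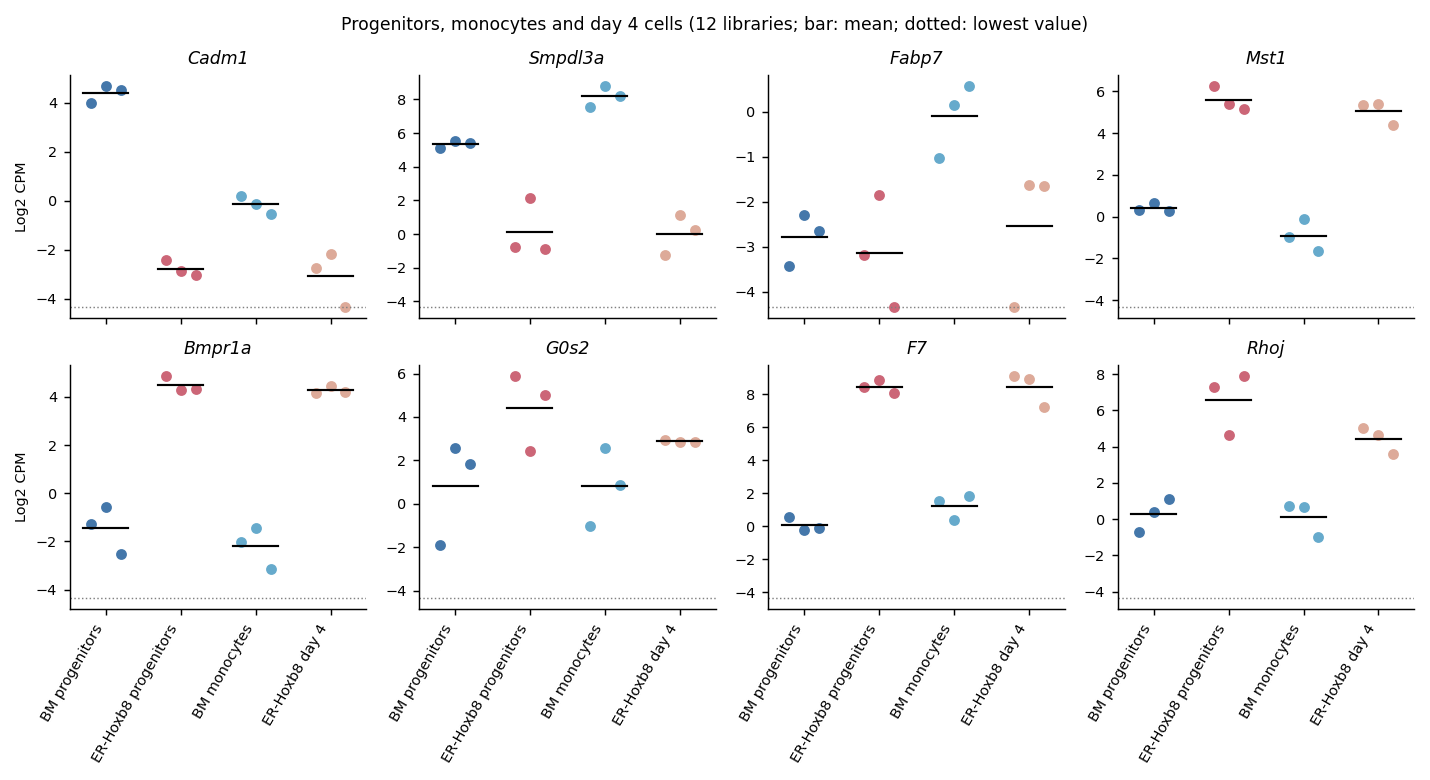
Log2 CPM of the 8 genes in the 12 libraries of BM progenitors, ER-Hoxb8 progenitors, BM monocytes and day 4 cells, with a point per library, a bar at the mean and a dotted line at the lowest value. F7, Mst1, Bmpr1a and Rhoj separate every ER-Hoxb8 library from every BM library, and G0s2 overlaps between the progenitor groups.

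Mst1, the ligand macrophage-stimulating protein, was high in all cultured ER-Hoxb8 cells. BM progenitors read 0.32, 0.64 and 0.29 and ER-Hoxb8 progenitors 6.28, 5.38 and 5.18. Monocytes read -1.0, -0.11 and -1.64 and day 4 cells 5.37, 5.40 and 4.41. The ER-Hoxb8 groups overlapped each other and lay above BM progenitors, which lay above monocytes. Mst1 was higher at 5.20 (SE 0.47, adjusted p = 1.11e-05) in ER-Hoxb8 progenitors and at 5.97 (SE 0.47, adjusted p = 7.47e-06) on day 4, each with 3 of 3 libraries above all BM libraries.

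In the brain Mst1 stayed detectable in most ER-Hoxb8 MLCs. BMD macrophages read -1.76, -0.60 and -0.89 and ER-Hoxb8 macrophages 4.89, 4.69 and 4.79. ER-Hoxb8 MLCs read 0.50, 1.74 and 2.11 in GFPHox and -3.62, 3.48 and -1.04 in WTHox libraries. BMD MLCs were at the lowest value except for -3.17 in replicate 2, and microglia except for -3.14 and -3.25. 5 of 6 ER-Hoxb8 MLCs exceeded every BMD MLC and microglia library, and all 6 lay below the cultured ER-Hoxb8 macrophages. Every BMD MLC and microglia library held at most 3 reads. With the brain libraries alone in the fit, an alternative chosen after seeing the data, Mst1 was too low to be tested, so no fold or p is given here.

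The lines kept Mst1 high. NTC progenitors read 5.20, 4.86 and 5.33 and NTC macrophages 5.71 and 5.58, with 5.21 in replicate 2. sgRNA 1 progenitors read 5.36, 5.07 and 5.29 and macrophages 4.99, 5.55 and 5.53. sgRNA 2 progenitors read 5.22, 5.34 and 5.26 and macrophages 5.69, 5.61, 5.64, 5.65 and 5.73. Macrophages stood above progenitors in NTC and sgRNA 2, and the sgRNA 1 groups overlapped. The steps were small, at 0.51 (SE 0.19, adjusted p = 0.0318, from 0.0127 to 0.139 over its alternatives) for NTC and 0.39 (SE 0.05, adjusted p = 5.91e-05) for sgRNA 2. sgRNA 1 against NTC gave 0.11 (SE 0.17, adjusted p = 0.991) in progenitors and -0.29 (SE 0.19, adjusted p = 0.314) in macrophages, where the lines did not overlap.

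Mst1r, which encodes the receptor of Mst1, was lower in ER-Hoxb8 progenitors than in BM progenitors at -9.35 (adjusted p = 1.31e-05). It was 1 of 3 genes called lower, with Hpn at -6.61 and Spint2 at -7.00, of 6 tested among 8 genes of the MSP and HGF pathway, with a median of -3.99 beside -0.08 for all genes. On day 4 Mst1r at -3.54, Hgf at -5.31, Hpn at -3.11 and Spint2 at -5.67 were lower, with a median of -3.43 beside -0.01. limma called 0 of 3 between the MLCs, with a median of -0.82. The neighbours of Mst1 on chromosome 9, Rnf123 and Apeh, gave -0.59 and -0.96 in progenitors, neither called.

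Bmpr1a, the BMP receptor, was high in all cultured ER-Hoxb8 cells. BM progenitors read -1.29, -0.56 and -2.53 and ER-Hoxb8 progenitors 4.85, 4.28 and 4.34. Monocytes read -2.02, -1.42 and -3.15 and day 4 cells 4.16, 4.45 and 4.22. Both ER-Hoxb8 groups overlapped, as did both BM groups, with a wide gap between them. Bmpr1a was higher at 5.95 (SE 0.57, adjusted p = 1.78e-05) in ER-Hoxb8 progenitors and at 6.47 (SE 0.57, adjusted p = 1.7e-05) on day 4, with 3 of 3 libraries above all BM libraries in each. Every BM library lay below log2 0, so Bmpr1a passed the filter through the ER-Hoxb8 libraries alone. Both calls are therefore given as descriptions.

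Brain cells of every origin held Bmpr1a. BMD macrophages read -1.34, -1.30 and -1.41 and ER-Hoxb8 macrophages 4.38, 4.41 and 4.68. BMD MLCs read 1.49, -2.64, 4.28, 2.15, 2.16 and 2.40, and microglia ran from 4.22 through 4.76 to 5.39. ER-Hoxb8 MLCs read 4.61, 4.04 and 4.72 in GFPHox and 3.02, 3.50 and -1.42 in WTHox libraries. Microglia overlapped ER-Hoxb8 macrophages, which overlapped ER-Hoxb8 MLCs, which overlapped BMD MLCs, and 5 of 6 BMD MLCs lay above the BMD macrophages. Against BMD MLCs the fold change in ER-Hoxb8 MLCs was 1.44 (SE 0.86, adjusted p = 0.276), and without replicate 6 it was called at 2.34 (adjusted p = 0.0242). With GFPHox libraries only it was 2.81 (adjusted p = 0.0223), and with WTHox libraries only 0.06 (adjusted p = 0.98). Bmpr1a was lower in BMD MLCs than in microglia at -3.20 (SE 0.78, adjusted p = 0.00364), with 5 of 6 libraries below every microglia library, and at -3.18 without microglia replicates 8 and 9. In ER-Hoxb8 MLCs against microglia it was -1.76 (SE 0.78, adjusted p = 0.0851), -1.74 without replicates 8 and 9, -0.86 (adjusted p = 0.33) without ER-Hoxb8 MLC replicate 6, -0.39 (adjusted p = 0.763) with GFPHox libraries only and -3.14 (adjusted p = 0.0119) with WTHox libraries only. Over all alternatives the adjusted p ran from 0.0223 to 0.98 between the MLCs and from 0.0119 to 0.763 against microglia.

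In the lines Bmpr1a lay in a narrow range. NTC progenitors read 4.69, 4.54 and 4.76 and NTC macrophages 4.09 and 3.95, with 3.60 in replicate 2. sgRNA 1 progenitors read 4.32, 4.59 and 4.50 and macrophages 4.32, 4.13 and 4.00. sgRNA 2 progenitors read 4.51, 4.87 and 4.72 and macrophages 4.55, 4.44, 4.60, 4.83 and 4.35. NTC macrophages were below NTC progenitors by -0.64 (SE 0.15, adjusted p = 0.00217), under the fold limit, and the KO groups overlapped. sgRNA 1 against NTC gave -0.19 (SE 0.13, adjusted p = 0.943) in progenitors and 0.13 (SE 0.15, adjusted p = 0.574) in macrophages.

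Of 19 BMP pathway genes 10 were tested in the 12 libraries. In ER-Hoxb8 progenitors Id1 was called higher at 2.75 and Acvr1 at -3.28 and Smad1 at -2.97 lower, with a median of -0.44 beside -0.08. Smad1 was also lower on day 4, at -2.89, and in ER-Hoxb8 against BMD MLCs, at -2.85, with medians of -0.02 and -0.50. From NTC progenitors to macrophages Acvrl1 at 6.42 and Id2 at 7.06 rose, and Id1 at -5.76 and Bambi at -2.72 fell, of 9 tested with a median of 0.14. Id1 was higher in sgRNA 1 than NTC macrophages, at 2.92. At 0 µM of the baricitinib experiment Id3, lower in Adar KO than NTC macrophages at -2.78, was the only call of 10 tested. Mmrn2, 6.8 kb from Bmpr1a on chromosome 14, was the gene most like it (r = 0.787), followed by Sall3 (0.761) and Edem1 (0.734).

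F7, coagulation factor VII, was high in all cultured ER-Hoxb8 cells. BM progenitors read 0.58, -0.20 and -0.08 and ER-Hoxb8 progenitors 8.45, 8.86 and 8.07. Monocytes read 1.53, 0.37 and 1.85 and day 4 cells 9.08, 8.95 and 7.22. The ER-Hoxb8 groups overlapped each other, as did the BM groups, and no ER-Hoxb8 library came near a BM library. F7 was higher at 8.36 (SE 0.52, adjusted p = 7.74e-07) in progenitors and at 7.17 (SE 0.52, adjusted p = 4.85e-06) on day 4, in 3 of 3 libraries each. None of 5 hepatocyte markers was above 1 CPM in any BM, BMD macrophage or ER-Hoxb8 group outside the brain without a guide, and in day 4 cells and ER-Hoxb8 macrophages all 5, Alb, Ttr, Apoa1, Apoh and Ahsg, were at the lowest value.

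In the brain F7 was near or at the lowest value in most cells of either origin. BMD macrophages read 3.25, 4.18 and 1.32 and ER-Hoxb8 macrophages 8.57, 8.68 and 8.17. ER-Hoxb8 MLCs read -3.62 in all 3 GFPHox libraries and -3.06, 0.27 and 2.40 in the WTHox libraries. BMD MLCs read -3.62 in 4 libraries, 0.90 in replicate 3 and -1.67 in replicate 5, and microglia -3.62 except for -2.98 and -3.08. All ER-Hoxb8 MLCs lay below the ER-Hoxb8 macrophages, and ER-Hoxb8 MLCs, BMD MLCs and microglia overlapped. F7 was too low to be tested with the brain libraries alone, so no fold or p is given here.

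The lines kept F7 high at each stage. NTC progenitors read 8.81, 8.98 and 8.78 and NTC macrophages 8.39 and 8.12, with 7.89 in replicate 2. sgRNA 1 progenitors read 8.71, 8.81 and 8.71 and macrophages 8.07, 8.11 and 7.94. sgRNA 2 progenitors read 8.60, 8.55 and 8.46 and macrophages 8.47, 8.34, 8.32, 8.36 and 8.34. Progenitors stood above macrophages in NTC and sgRNA 1, and the sgRNA 2 groups overlapped. The step was -0.60 (SE 0.11, adjusted p = 0.000499) in NTC and -0.17 (SE 0.05, adjusted p = 0.00578) in sgRNA 2, both under the fold limit. sgRNA 1 against NTC gave -0.11 (SE 0.10, adjusted p = 0.984) in progenitors and -0.21 (SE 0.11, adjusted p = 0.197) in macrophages, where the lines did not overlap.

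Of 19 coagulation genes 13 were tested in the 12 libraries, and F7 was not accompanied by most of them. In ER-Hoxb8 progenitors Procr was called higher at 2.96, and F2r at -4.98, F2rl3 at -4.42 and Pros1 at -3.91 lower, with a median of -0.26 beside -0.08. Without replicates 1 and 2 F2r, at 0.17, and F2rl3, at -3.59, were not called. On day 4 Procr was higher at 4.47, and F5 at -7.25, F2rl3 at -5.96, Thbd at -2.58 and F10 at -2.11 lower, with a median of -2.37 beside -0.01. Between the MLCs Thbd was lower in ER-Hoxb8 cells at -3.98, the only call of 13, with a median of -0.37. F10, which encodes the substrate of factor VII, starts 1.5 kb past F7 on chromosome 8. The change of F10 from ER-Hoxb8 progenitors to day 4 cells differed from that of BM progenitors to monocytes by -3.85 (SE 0.77, adjusted p = 0.0267), where that of F7 differed by -1.19 (SE 0.73, adjusted p = 0.507).

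Rhoj, a small GTPase, marked cultured ER-Hoxb8 cells and was all but absent from the brain. BM progenitors read -0.71, 0.42 and 1.11 and ER-Hoxb8 progenitors 7.28, 4.62 and 7.88. Monocytes read 0.73, 0.68 and -1.0 and day 4 cells 5.05, 4.64 and 3.61. Replicate 2 of the ER-Hoxb8 progenitors sat with the day 4 cells, and every ER-Hoxb8 library stood above every BM library. Rhoj was higher at 6.32 (SE 0.83, adjusted p = 0.000196) in progenitors and 4.30 (SE 0.83, adjusted p = 0.00387) on day 4. From ER-Hoxb8 progenitors to day 4 cells it was -2.16 (SE 0.83, adjusted p = 0.497). Without progenitor replicate 2 that step was called at -3.14 (adjusted p = 0.0152), with 737 genes called, and without replicates 1 and 2, chosen after seeing the data, at -3.44 (adjusted p = 0.021), with 1213 genes called. Over the 13 alternatives of that step the adjusted p ran from 0.0152 to 0.793, and over those of the progenitor contrast from 2.47e-05 to 0.0015. Macrophage markers in replicate 2 were at the level of the day 4 cells, 42300 to 61700 CPM.

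On day 7 Rhoj read -0.15, 0.15 and 0.33 in BMD macrophages and 5.77, 5.35 and 5.42 in ER-Hoxb8 macrophages. In the brain 5 of 6 BMD MLCs and 5 of 6 ER-Hoxb8 MLCs were at the lowest value, with -2.95 and -2.88 in the others. Microglia ran from -3.62 through -3.25 to -2.28. All 3 groups overlapped at no more than 3 reads per library, so no fold is given and Rhoj was not tested there.

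In the lines Rhoj was higher in progenitors than in macrophages. NTC progenitors read 7.87, 8.04 and 7.85 and NTC macrophages 4.69 and 4.96, with 4.41 in replicate 2. sgRNA 1 progenitors read 7.92, 7.90 and 7.84 and macrophages 4.09, 4.44 and 4.55. sgRNA 2 progenitors read 7.75, 7.77 and 7.65 and macrophages 4.96, 4.75, 4.92, 4.75 and 4.88. Progenitors and macrophages were apart in each line. Rhoj fell by 3.09 on the log2 scale in NTC (SE 0.15, adjusted p = 5.55e-09) and by 2.87 in sgRNA 2 (SE 0.06, adjusted p = 4.39e-11). sgRNA 1 macrophages lay below NTC macrophages by -0.46 (SE 0.15, adjusted p = 0.0417, from 0.0097 to 0.249 over its alternatives), under the fold limit and without overlap, and progenitors differed by -0.03 (SE 0.13, adjusted p = 0.999).

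Among 12 other small GTPase genes 10 were tested in the 12 libraries. Rhoq was called higher at 2.63 and Rhoh lower at -2.27 in ER-Hoxb8 progenitors (-1.90 and not called without replicates 1 and 2), with a median of 0.57 beside -0.08, and Rhou lower at -4.74 on day 4, with a median of -0.50. Rhoc was lower in ER-Hoxb8 than BMD MLCs at -2.03 (-1.88 and not called without replicate 6), the only call of 12, with a median of -0.74. From NTC progenitors to macrophages Rhoc at 3.89 and Rhov at 2.40 rose and Rhou fell at -3.99, of 11 tested with a median of 0.48.

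**Figure D3:**
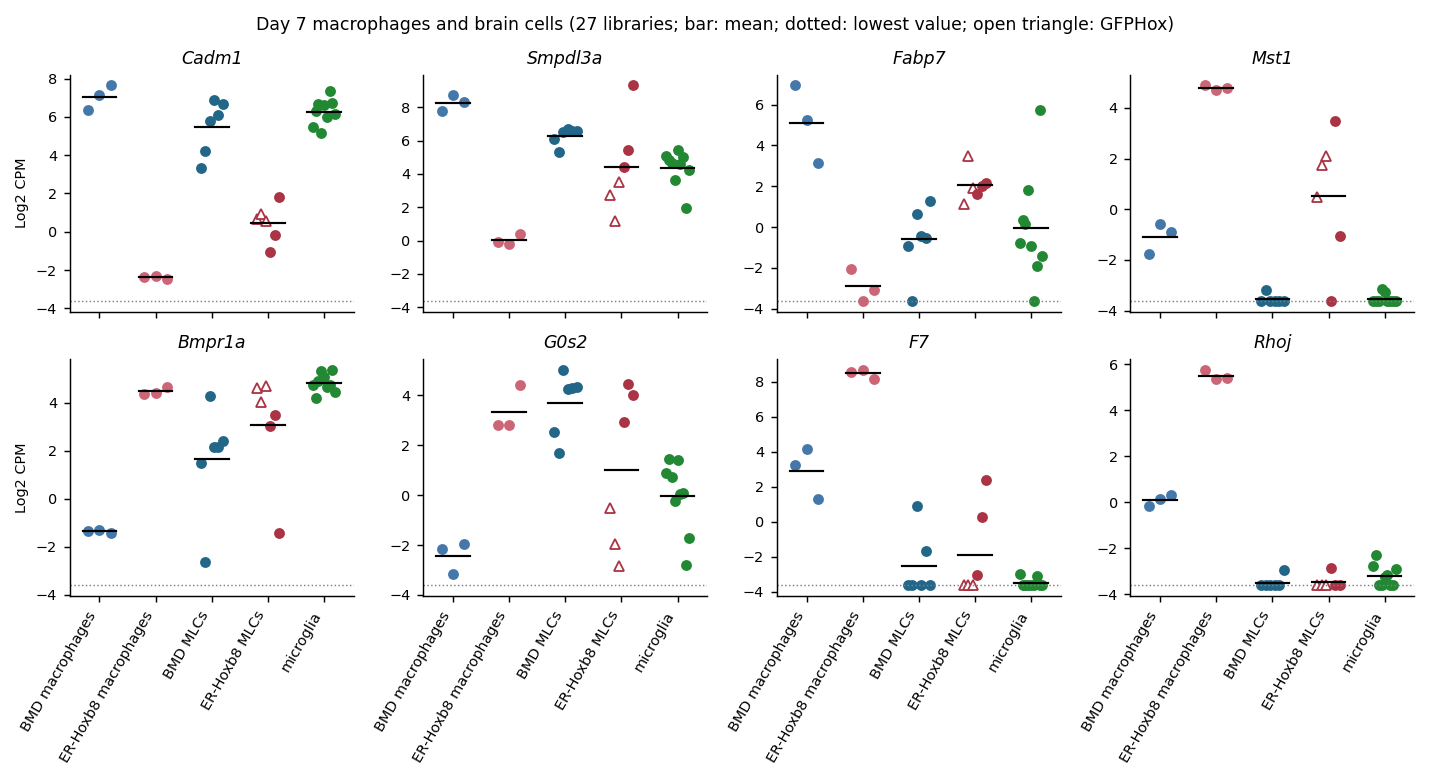
Log2 CPM of the 8 genes in the 27 libraries of day 7 macrophages, MLCs and microglia, with a point per library, open triangles for GFPHox libraries, a bar at the mean and a dotted line at the lowest value. Cadm1 keeps ER-Hoxb8 MLCs below BMD MLCs, F7 and Rhoj are near the lowest value in the brain, and G0s2 and Smpdl3a split the GFPHox from the WTHox libraries.

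**Figure D4:**
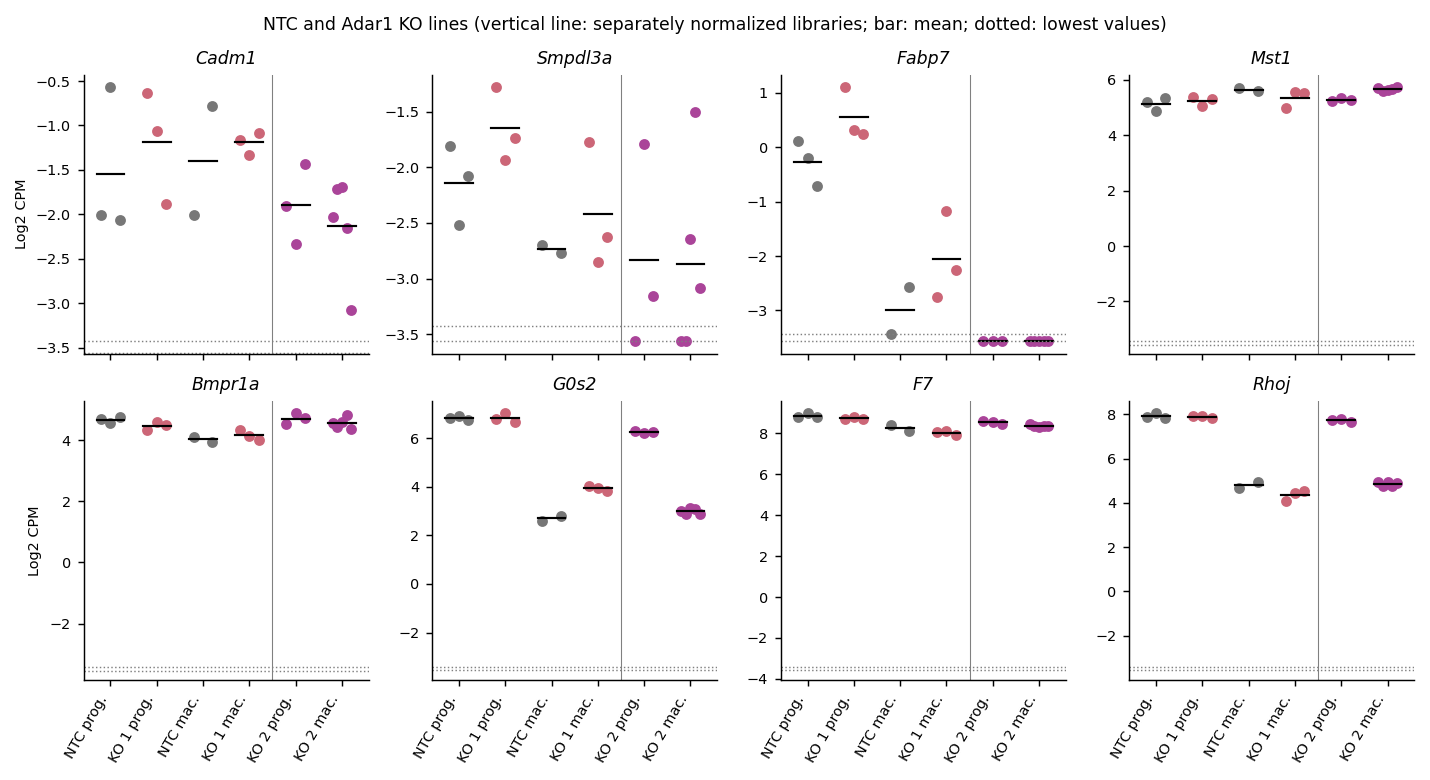
Log2 CPM of the 8 genes in progenitors and macrophages of NTC, Adar KO sgRNA 1 and Adar KO sgRNA 2 lines, with a point per library, bars at the means and dotted lines at the lowest values. The vertical line separates libraries normalized apart, whose levels are not compared. G0s2 and Rhoj are lower in macrophages than in progenitors of each line.

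F7 was lower at the highest dose of baricitinib. NTC macrophages at 0 µM read 7.72, 7.45 and 7.92, and at 10 µM 5.18, 4.32 and 6.06. The doses between ran from 7.16 to 7.40 at 0.0006 µM, 7.10 to 7.62 at 0.016 µM and 6.73 to 7.33 at 0.4 µM. At 10 µM all 3 libraries lay below every library of the lower doses. F7 fell by 2.50 on the log2 scale from 0 to 10 µM (SE 0.35, adjusted p = 1.83e-05), between -2.94 and -2.07 when any library was left out. Adar KO macrophages read 7.72, 7.50 and 7.63 at 0 µM and 6.40, 4.57, 4.83 and 5.55 at 10 µM. The drug's effect on F7 differed between Adar KO and NTC by 0.23 (SE 0.47, adjusted p = 0.742). Its neighbour F10 was lower in NTC at 10 µM at -2.45 (adjusted p = 4.17e-07), the only call among the 10 coagulation genes tested, with a list median of 0.25.

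The other members high in ER-Hoxb8 cells were not called at 10 µM. Mst1 read 5.14, 5.04 and 5.02 in NTC at 0 µM and 4.18, 4.44 and 4.33 at 10 µM, apart by -0.75 (SE 0.17, adjusted p = 0.00528). G0s2 read 1.97, 2.70 and 2.26 at 10 µM, below its 3 libraries at 0 µM by -0.65 (SE 0.23, adjusted p = 0.0572). Rhoj read 3.81, 3.16 and 4.03 at 0 µM and 2.97, 2.11 and 2.65 at 10 µM, apart by -1.10 (SE 0.56, adjusted p = 0.197). Bmpr1a read 3.58, 3.87 and 3.82 at 0 µM and 4.00, 4.13 and 3.73 at 10 µM, overlapping at 0.19 (SE 0.22, adjusted p = 0.611). In Adar KO macrophages Bmpr1a read 4.15, 3.52 and 3.75 at 0 µM and 4.61, 5.09, 4.62 and 4.43 at 10 µM, without overlap. The drug's effect on Bmpr1a differed between Adar KO and NTC by 0.69 (SE 0.30, adjusted p = 0.0674).

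At 0 µM, Adar KO and NTC macrophages overlapped for F7, Mst1 and Bmpr1a, with fold changes of -0.08, 0.02 and 0.05. For Rhoj the KO libraries, at 4.83, 4.54 and 4.36, were above the NTC libraries by 0.91 (SE 0.56, adjusted p = 0.248). Adar KO replicate 2 at 0.4 µM stood apart, with Rhoj at 0.17 beside 3.19 and 3.77 and Adar at 7.38 beside 4.12 and 4.21. It enters no member comparison except through the spread shared by the 33 libraries. Cadm1, Smpdl3a and Fabp7 were too low to be tested in this experiment.

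**Figure D5:**
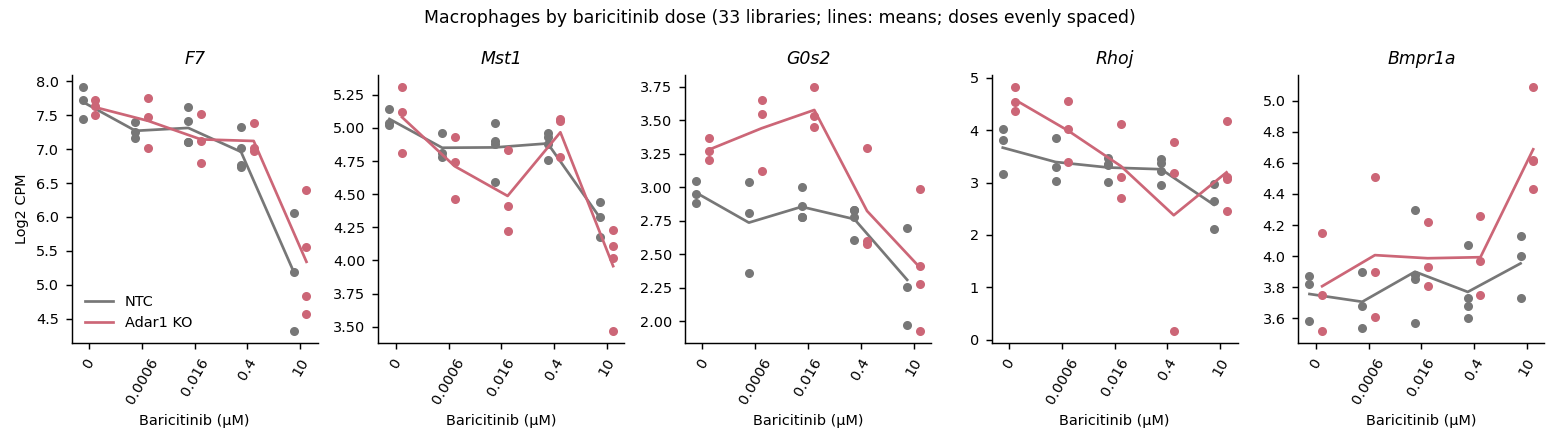
Log2 CPM of F7, Mst1, G0s2, Rhoj and Bmpr1a in the 33 macrophage libraries by baricitinib dose in µM, with doses evenly spaced, a point per library and lines through the means of NTC and Adar KO. F7 lies between 4.32 and 6.40 at 10 µM and at 6.73 or more at the lower doses.

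Groups of 3 libraries leave wide intervals. Outside the brain Cas9 and cell source cannot be separated, nor can culture in the comparisons with BM progenitors and monocytes. Levels in progenitors, brain and lines were normalized apart and were not compared with each other. The ER-Hoxb8 MLCs mix libraries named GFPHox with libraries named WTHox and ending in Lo. All are labelled WT, and the labels do not explain the names.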

How the data were processed

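The values are the authors' deposited log2 CPM. The submitters' processing notes name FastQC, kallisto 0.46.0, MultiQC, edgeR and limma. Depth was estimated from the deposited values. Members and gene lists were chosen with earlier results of these data known. Of 29957 entries 1 had no name. Genes above log2 0 in at least 3 libraries (6 in the 27-library set) were tested with limma 3.58.1 in R 4.3.3, with Benjamini-Hochberg adjustment in each comparison, and called at adjusted p below 0.05 and an absolute log2 fold change of at least 2. Genes named are the members, Adar, Hoxb8, the 3 genes next in day 7 rank each way and nonmembers ranked above, 2 neighbours each side, the 3 most alike genes over 27 libraries (Cadm1, Smpdl3a, Fabp7, G0s2, Bmpr1a), 9 gene lists (CADM and nectin, sphingomyelin, LXR, fatty acid binding proteins, triglyceride, MSP and HGF, BMP, coagulation, small GTPases) and cell type markers. Same-numbered replicates paired (r above 0.1 in each of 3 or more pairs) for day 4 against ER-Hoxb8 progenitors and sgRNA 1 against NTC progenitors only. Both are reported unpaired, and the replicate block gave 0 and 26 genes there and changed no member call. Promoters and gene positions came from RefSeq on GRCm38.p6, with motif letters searched by script. Alternatives were a fold limit of 1, a filter above log2 1, no filter, NTC macrophage replicate 2 kept, log2(CPM + 1), quantile normalization, a replicate block, each library left out, GFPHox or WTHox libraries alone, microglia replicates 8 and 9 left out and, chosen after seeing the data, the brain libraries alone and ER-Hoxb8 progenitor replicates 1 and 2 left out. Tables and figures used Python 3.11.15, pandas 2.3.3, numpy 2.4.6 and matplotlib 3.10.9.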

Additional observations from a re-analysis of the deposited data

Results flagged for a closer look

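A search of 53 combinations of a member with a group for a single library apart from the rest gave 9. About 1 in 20 combinations would be picked by chance. In 7 of the 9 every other library was tied at the lowest value, where any read sets a library apart and that rate does not apply. Bmpr1a read -1.42 in ER-Hoxb8 MLC replicate 6, the next value being 3.02, in the library that also had the most macrophage markers of its group. F7 read 8.47 in sgRNA 2 macrophage replicate 1, the next being 8.36. Among the 7, Mst1 read -3.17 in BMD MLC replicate 2, and Rhoj read -2.95 in BMD MLC replicate 6 and -2.88 in ER-Hoxb8 MLC replicate 4. Smpdl3a read -2.24 in NTC at 0.4 µM replicate 3. Fabp7 read -2.07 in NTC at 0.016 µM replicate 3, -1.81 in NTC at 0.4 µM replicate 3 and -2.38 in Adar KO at 10 µM replicate 2.

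Among the members 2 differences between comparisons passed the adjusted p in limma. For G0s2 the sgRNA 1 effect in macrophages exceeded that in progenitors by 1.24 (SE 0.18, adjusted p = 0.000794), in 3 of 3 KO macrophage libraries. For Cadm1 the step to day 4 and the step to monocytes differed by 4.25 (SE 0.84, adjusted p = 0.0259), with all 3 monocyte libraries below all 3 BM progenitor libraries. ER-Hoxb8 progenitors were near the lowest value of Cadm1 and could not fall as BM cells did, so nothing is read from that difference.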

How the results depend on the processing

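Leaving out a library kept direction and call in 583 of 616 member values, with 8 stronger and 25 reversed, and other alternatives kept 499 of 534, with 4 weaker, 16 stronger and 15 reversed. Every reversed value was uncalled in the reported fit. The cause of each change was not tested, and a group left with 1 library is assumed to vary like the others. A fold limit of 1 gave 2831 genes in ER-Hoxb8 against BM progenitors, 1545 in ER-Hoxb8 against BMD MLCs, 2096 in BMD MLCs against microglia, 3545 in ER-Hoxb8 MLCs against microglia, 5456 in NTC macrophages against progenitors, 1178 (with 1 member, G0s2 at 1.24) in sgRNA 1 against NTC macrophages, 83 in their progenitors, 4952 in sgRNA 2, 1276 in Adar KO at 0 µM and 493 at 10 µM. log2(CPM + 1) gave 911 genes for day 4 against monocytes (Cadm1 weaker at -0.77), 446 between the MLCs (1 member, Cadm1, with Mst1 not called at 1.62), 842 in BMD MLCs and 1267 in ER-Hoxb8 MLCs against microglia (in the latter 1 member, Cadm1, with Mst1 not called at 1.62), 284 and 13 for sgRNA 1 in macrophages and progenitors, 250 in Adar KO at 0 µM and 43 at 10 µM, with Fabp7 at -0.75 in NTC macrophages against progenitors and G0s2 at 2.78 in ER-Hoxb8 against BM progenitors. Between the MLCs, 4 members among 984 genes were called with the replicate block, 5 among 873 with GFPHox, 1 among 1172 with WTHox and 1 among 699 with the brain libraries alone, and against microglia 5 among 2595 with WTHox and 1 among 1978 with the brain alone. Counts and values of Mst1 and F7 in the brain rest on a filter passed only with the day 7 libraries, and nothing is read from them. Without ER-Hoxb8 progenitor replicates 1 and 2 the day 4 step had 1213 genes and 1 member. Quantile normalization called G0s2 at 3.98 in progenitors and Fabp7 at 3.11 between the MLCs. Reversed were F7 at 0.05 (quantile) and 0.35 and Smpdl3a at 0.93 (replicates 1 and 2 out) in the day 4 step; F7 at -1.08 (GFPHox), G0s2 at 0.11 and Smpdl3a at 0.09 (WTHox) between the MLCs; Fabp7 at 0.11 in BMD MLCs against microglia (8 and 9 out); F7 at -0.13, G0s2 at -1.74 and Smpdl3a at -1.91 (GFPHox) and Smpdl3a at -0.13 (quantile), -0.27 (replicate block) and -0.32 (8 and 9 out) in ER-Hoxb8 MLCs against microglia; and G0s2 at 0.02 and Rhoj at 0.01 (quantile) in sgRNA 1 progenitors. With the replicate block Fabp7 was 2.56 against microglia, and 2.76 without microglia replicates 8 and 9. Leaving out each library, genes called ran from 1439 to 2405 (members 6 to 7) in ER-Hoxb8 against BM progenitors, 0 to 737 (0 to 1) in the day 4 step, 1132 to 1296 (6 to 6) on day 4 against monocytes, 673 to 884 (2 to 5) between the MLCs, 1249 to 1337 (2 to 2) in BMD and 1920 to 2213 (2 to 3) in ER-Hoxb8 MLCs against microglia, 2517 to 2710 (3 to 3) in NTC, 391 to 569 and 20 to 33 (0 to 0) for sgRNA 1 macrophages and progenitors, 1903 to 2079 (2 to 2) in sgRNA 2, 401 to 478 (0 to 0) in Adar KO at 0 µM and 61 to 97 (1 to 1) at 10 µM. Ranges across 0 were Cadm1 -0.77 to 0.32, F7 -0.37 to 0.56 and Smpdl3a -0.67 to 0.88 in the day 4 step; F7 -0.19 to 1.35 between the MLCs; Fabp7 -0.97 to 0.20 and Mst1 -0.09 to 0.03 in BMD MLCs and Smpdl3a -0.93 to 0.70 in ER-Hoxb8 MLCs against microglia; G0s2 -0.10 to 0.07, Mst1 -0.03 to 0.21 and Rhoj -0.07 to 0.03 in sgRNA 1 progenitors; and Bmpr1a -0.12 to 0.19, F7 -0.20 to 0.03 and Mst1 -0.10 to 0.15 in Adar KO at 0 µM.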
